A study of Mus musculus with 12 samples.

Results

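The 7 genes described here are core components of Hedgehog signalling, chosen by symbol among the 35976 genes of the RNA-seq table: the transcription factors Gli1, Gli2 and Gli3, the receptors Ptch1 and Smo, the ligand trap Hhip, and the GLI inhibitor Sufu. In this pathway a secreted Hedgehog ligand binds PTCH1, which then no longer restrains the membrane protein SMO, and SMO acts at the primary cilium to free GLI proteins from SUFU. GLI2 is the main activator, GLI3 the main repressor, and GLI1 is an activator whose own gene is a target of the pathway, as are Ptch1 and Hhip. The pathway patterns the neural tube and limbs of the embryo.

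The RNA came from mouse embryonic stem cells (mESC), and 3 genotypes were each sampled in duplicate before and after differentiation, giving 6 groups and 12 libraries. In the KO, a CRISPR guide directed to the first exon of Proser1 had been used, and the line is a single clone. The KO+Rescue line is that clone carrying a PiggyBac transgene for PROSER1 with a FLAG tag at its C-terminus and a blasticidin resistance cassette, again subcloned, and WT is the unedited line. With a single line for each genotype, the genotype and other differences between the lines cannot be told apart. An effect of KO or of re-expression below is a difference between these lines. All groups, WT included, share a TET2 fl/fl background, since the line was derived from blastocysts with this allele. The mESC stage (day 0) was grown without feeders in serum medium with LIF, the GSK3 inhibitor CHIR99021 and the MEK inhibitor PD0325901, and its RNA was taken when the cells were moved to N2B27. Day 2 cells had spent 2 days in N2B27, which has its own supplements and for which no inhibitor, serum, serum replacement or LIF is listed. Time and this whole change of medium cannot be told apart in any comparison of stages. GSK3 is also a kinase that phosphorylates GLI proteins.

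The libraries held 38634668 to 66450803 assigned read pairs. The columns coded 39 and 39R were read as KO and KO+Rescue, which no label states. Proser1 stood at 3041 and 2994 normalised counts in KO+Rescue, 872 and 1067 in KO and 829 and 685 in WT at day 2, and at 2829 and 3089.8 in KO+Rescue, 576 and 502 in KO and 889 and 551 in WT mESC, so the transgene is visible in the libraries read as KO+Rescue, while counts over the whole gene do not check a small lesion in 1 exon. The 10 listed pluripotency markers summed to 209275.5 to 228113.7 normalised counts in KO+Rescue, 212463 to 222452 in KO and 169445 to 185326 in WT mESC, and the 6 formative and primed markers to 101360.2 to 102873, 115536 to 118952 and 84184 to 99286 in KO+Rescue, KO and WT at day 2. The 8 fibroblast and mesenchyme markers, a type in which Gli genes are commonly active, summed to 233 to 334 in KO+Rescue, 430.3 to 441 in KO and 416 to 465 in WT mESC, with Prrx1 at 0 in all 3. Of the 5 of them tested, 1 rose and 1 fell in KO against WT mESC, beside 3.23% and 6.26% of all genes. Their log2 changes ran from −1.56 to 3.19, so the near-equal sums hide differences of single markers. The part of these markers in the results below was not tested. Each limma p-value below rests on the spread between the 2 libraries of a line at a stage. The labels call these biological replicates. Both come from the same line, and how separately they were grown is not stated, so part of the spread may be technical. This spread is pooled over the 6 groups and drawn towards that of other genes. In bulk RNA, fewer expressing cells and less RNA per cell cannot be told apart.

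All members except Hhip were measured with 35 or more read pairs in each library, and Hhip was close to the detection limit in mESC. Per kilobase of transcript, the scale used here for comparing genes with each other, Smo was the highest member at day 2 in every genotype, at a mean of 742 normalised counts per kb in KO+Rescue, 762 in KO and 876 in WT. In mESC the order was different, and Gli2 led in KO+Rescue (149 per kb) and KO (88.2 per kb, against 87.7 for Sufu), whereas Sufu led in WT (112 per kb, against 107 for Smo and 99.1 for Gli2). Hhip was last everywhere, at 5.39 per kb or less. The plot of the members by library shows all 12 values of each gene.

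**Figure D1:**
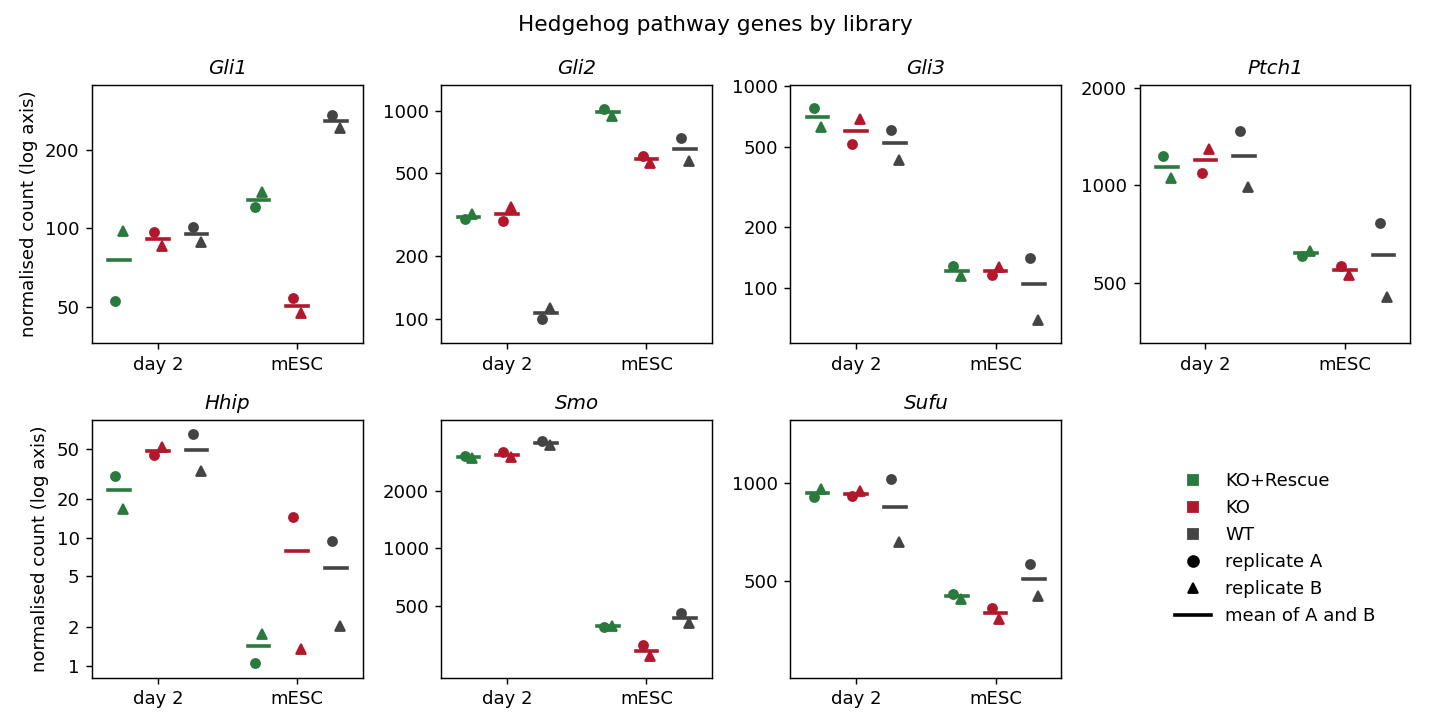
Normalised counts (log axis, scale differing between panels) of the 7 Hedgehog pathway genes in the 12 libraries, with day 2 and mESC on the horizontal axis. Replicate A is a circle, replicate B a triangle, and a bar marks their mean. The mean of Gli1 is lowest in KO mESC and highest in WT mESC, Gli2 is lowest in WT at day 2, and Gli3, Ptch1, Hhip, Smo and Sufu are higher at day 2 in every genotype.

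To ask whether the pathway differed between the KO and WT lines, KO was first compared with WT in mESC. Of the 7 members, 2 fell and none rose, and 6.26% of all 15341 genes tested fell and 3.23% rose. Gli1 fell most. It had 53.8 and 47.2 normalised counts in KO mESC, against 273 and 242 in WT mESC, and the groups did not overlap. This is a log2 change of −2.33 ± 0.28 (SE, n = 2 each), 5.02-fold lower in KO (limma, adjusted p = 0.00038), on the scale of log2(normalised count + 1) used for all changes here. The call was kept in every alternative tried, with changes of −2.42 to −2.24 when any 1 library was left out. None of the 7 listed mesendoderm markers was at 0 in both libraries of an mESC group. They summed to 871 to 923 normalised counts in KO+Rescue, 772 to 864 in KO and 1536.5 to 1542 in WT mESC. The sum was lower with Gli1 in KO, but of the 5 markers tested 1 fell and none rose in KO against WT mESC. Their log2 changes ran from −1.64 to 1.15, and the part of these markers in the Gli1 result was not tested. Gli1 lies at chr10:127329882-127341579 (GRCm38), and 66 bases of it are shared with Arhgap9, where reads could be counted for either gene.

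Smo, the membrane protein that transmits the signal, had 310.4 and 274 normalised counts in KO mESC, against 460 and 409 in WT mESC. The change was −0.57 ± 0.12 (limma, adjusted p = 0.0136), or 1.49-fold lower in KO with no overlap. It did not pass without KO replicate B (−0.48, adjusted p = 0.156) or without WT replicate A (−0.49, adjusted p = 0.0959), nor when only the KO and WT mESC libraries entered the limma fit (adjusted p = 0.154). The gene spans chr6:29735497-29761366 and holds a pseudogene, Gm13717, within its limits.

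No other member passed the test in KO mESC. Gli2 had 609.5 and 562 normalised counts in KO mESC, against 742 and 574 in WT mESC, with overlapping values and a change of −0.16 (95% interval −0.52 to 0.21). Sufu, the protein that holds GLI factors inactive, had 413 and 382 in KO mESC and 563 and 448 in WT mESC. Its groups did not overlap, but the change of −0.34 ± 0.19 did not pass (limma, adjusted p = 0.251). Ptch1, the ligand receptor and itself a target of the pathway, had 562 and 530.1 in KO mESC, against 763 and 452 in WT mESC, so that the WT libraries lay on either side of the KO ones. Its interval ran from −0.60 to 0.39. Gli3 had 115 and 127 in KO mESC and 139.9 and 69.2 in WT mESC, again inside the WT range. Hhip rested on 13 and 1 read pairs in KO mESC and 8 and 2 in WT mESC, and no difference was detectable at this depth. The median change of the 7 members was −0.16, beside −0.04 for all genes.

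At day 2 the member that passed was another GLI factor. Of the 7 members, Gli2 rose in KO and none fell, against 1.57% of all genes that rose and 3.64% that fell. Gli2 had 296 and 344 normalised counts in KO at day 2, against 99.3 and 113 in WT, a 3.00-fold higher level (log2 change 1.58 ± 0.17, n = 2 each, limma, adjusted p = 0.000107). Both KO libraries were far above both WT libraries, the change lay between 1.47 and 1.69 without any 1 library, and the call was kept in every alternative. The sum of every marker list was also higher in KO than in WT at day 2, without overlap. These sums hide differences of single markers. Of the 10 pluripotency markers, 1 rose and 2 fell in that comparison, with a median log2 change of −0.18. Of the 4 primitive and visceral endoderm markers tested, 1 rose and none fell, with a median of −0.25. The medians of the other marker lists were positive. The 7 mesendoderm markers summed to 448 to 477 in KO and 167 to 222 in WT, with Mesp1 at 0 in both KO libraries. The 7 primitive and visceral endoderm markers summed to 185 to 207 in KO and 161 to 176 in WT, with Ttr at 0 in these libraries. In the other lists no gene was at 0 in both KO or both WT libraries. The formative and primed sums are given above and the neuroectoderm sums below. The 10 pluripotency markers summed to 75469 to 83373 normalised counts in KO+Rescue, 84058 to 91730 in KO and 53355 to 70646 in WT at day 2. The 8 fibroblast and mesenchyme markers summed to 733 to 815 in KO+Rescue, where Prrx1 and Lum were at 0, 1382 to 1525 in KO and 993 to 1141 in WT at day 2. Of the 5 of them tested, 1 rose and none fell in KO against WT at day 2, with changes from −1.23 to 2.94. The part of any of these lists in the Gli2 result was not tested. Gli2 spans chr1:118834061-119054405 and overlaps the lncRNA Gm51642 and the microRNA gene Mir6346.

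Gli1, the member that had fallen most in mESC, had 96.8 and 85.3 normalised counts in KO at day 2 and 101 and 88.4 in WT. Its change was −0.06 ± 0.28 with an interval of −0.66 to 0.55. Smo stood at 3179 and 2999 in KO and 3624 and 3478 in WT at day 2, without overlap, and its change of −0.20 ± 0.12 did not pass (limma, adjusted p = 0.427). For Gli3, Ptch1, Hhip and Sufu the values of KO and WT overlapped at day 2, and their changes ran from −0.02 for Ptch1 to 0.21 for Gli3. The median over the members was 0.04, beside 0.02 for all genes.

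Whether the KO effect itself differed between the stages was tested as an interaction, the KO-over-WT change at day 2 minus that in mESC. It passed for 2 of the 7 members, both in the positive direction, against 0.502% of all genes. For Gli1 the difference of changes was 2.27 ± 0.40 (limma, adjusted p = 0.0146) and for Gli2 it was 1.74 ± 0.24 (limma, adjusted p = 0.00329). The Gli2 call was kept in every alternative. The Gli1 value stayed between 2.18 and 2.37 when 1 library was left out, but did not pass without KO replicate A or B at day 2, KO replicate B in mESC or WT replicate A in mESC (adjusted p = 0.0993, 0.0628, 0.0786 and 0.0543). The remaining members had differences from −0.08 for Gli3 to 0.51 for Sufu, none of which passed.

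**Figure D2:**
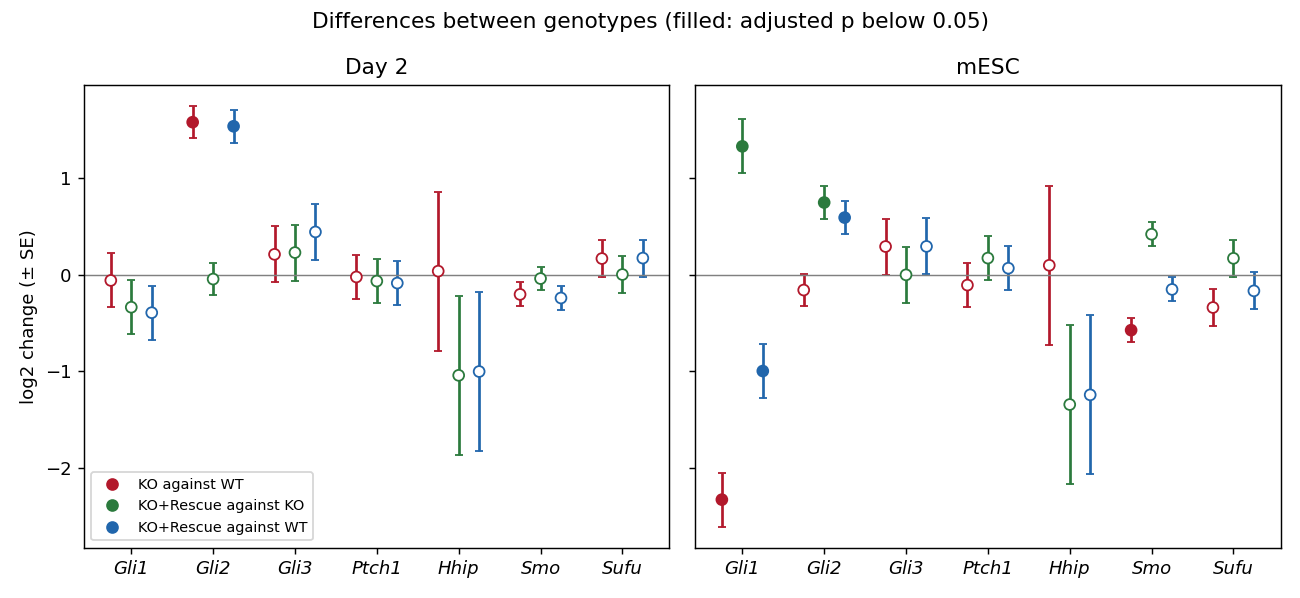
Log2 changes (vertical axis, ± SE from limma) of the 7 members at day 2 (left) and in mESC (right) for the 3 pairs of genotypes (red, KO over WT; green, KO+Rescue over KO; blue, KO+Rescue over WT), with filled points for an adjusted p below 0.05. At day 2 Gli2 alone has filled points (1.58 and 1.54), and in mESC the filled points belong to Gli1, Gli2 and Smo.

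Re-expression of PROSER1 was examined by comparing KO+Rescue with KO. This comparison and the one above use the same KO libraries, so their values are set side by side and are not separate evidence. In mESC, 2 of the 7 members rose and none fell, against 0.476% of all genes that rose and 1.04% that fell. Gli1 had 120.2 and 137 normalised counts in KO+Rescue mESC, against 53.8 and 47.2 in KO mESC, 2.52-fold higher (log2 change 1.33 ± 0.28, limma, adjusted p = 0.0339). Gli2 had 1026 and 947 in KO+Rescue mESC, against 609.5 and 562 in KO mESC, 1.68-fold higher (0.75 ± 0.17, limma, adjusted p = 0.0451). Neither gene's groups overlapped, yet both calls were close to the threshold. Without any 1 of the 4 libraries neither passed, with Gli1 at 1.24 to 1.43 (adjusted p = 0.0861 to 0.195) and Gli2 at 0.69 to 0.81 (adjusted p = 0.149 to 0.26).

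Smo, which had fallen in KO mESC, stood at 390.0 and 392 in KO+Rescue mESC, against 310.4 and 274 in KO mESC. The change of 0.42 ± 0.12 did not pass over all genes (limma, adjusted p = 0.129). Sufu, Ptch1 and Gli3 changed by 0.17, 0.17 and 0.00 in the same comparison, none past the test. Hhip was represented by 1 read pair in each KO+Rescue mESC library.

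At day 2, KO+Rescue and KO were not told apart at any member. The count of members called was 0 with limma, edgeR and DESeq2, beside 0.502% of all genes that rose and 1.33% that fell with limma. It was 0 also at an unadjusted p under 0.05, a threshold at which the share of all genes was not taken. Gli2 had 303 and 318 normalised counts in KO+Rescue at day 2, against 296 and 344 in KO, inside the KO range, with a change of −0.04 (95% interval −0.41 to 0.32). The Gli1 libraries of KO+Rescue at day 2 were far apart, at 52.8 and 97.7, against 96.8 and 85.3 in KO. Without KO+Rescue replicate A the Gli1 change was 0.10, and without replicate B it was −0.77, so its direction rests on which library is used. The difference between the stages in the effect of re-expression passed for none of the 7 members with limma or edgeR, beside 0.0847% of all genes in either direction with limma. For 3 members the unadjusted p was under 0.05, but the share of all genes at that threshold was not taken. For Gli1 the stage difference was −1.67 ± 0.40 (limma, adjusted p = 0.202), which passed in DESeq2 alone (−1.61, adjusted p = 0.0406).

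Set against WT, KO+Rescue mESC kept less Gli1 and had more Gli2, the 1 member that fell and the 1 that rose beside 9.04% and 9.15% of all genes. Gli1 at 120.2 and 137 in KO+Rescue mESC compared with 273 and 242 in WT mESC (−0.995 ± 0.28, limma, adjusted p = 0.031), between KO and WT. Gli2 at 1026 and 947 in KO+Rescue mESC compared with 742 and 574 in WT mESC (0.59 ± 0.17, limma, adjusted p = 0.0314), and was thus above both other genotypes. Leaving out 1 library removed the Gli2 call each time (0.41 to 0.78), and the Gli1 call in every case but that of WT replicate B.

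At day 2 Gli2 was the member that rose in KO+Rescue against WT, and none fell, beside 3.90% and 7.20% of all genes. Its 303 and 318 normalised counts in KO+Rescue, against 99.3 and 113 in WT, gave a change of 1.54 ± 0.17 (limma, adjusted p = 0.000123) that was kept in every alternative. These WT libraries are the ones that KO was compared with, and KO+Rescue derives from the KO clone. The Gli2 calls of KO and KO+Rescue against WT are thus not separate evidence. The order of the 6 group means of Gli2 was KO+Rescue, WT and KO mESC, then KO, KO+Rescue and WT at day 2. WT and KO mESC overlapped in this order, as did KO and KO+Rescue at day 2, and the other neighbours did not.

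The 2 days in N2B27 moved every member in every genotype. In WT 5 members rose and 2 fell (26.6% and 25.3% of all genes), in KO 6 rose and 1 fell (31.4% and 28.7%), and in KO+Rescue 5 rose and 2 fell (29.2% and 29.1%). Most genes changed between the stages, so the count of members says little, and the members are described by the direction and size of their changes.

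Smo showed the largest rise measured with precision. It had 3052 and 2967 normalised counts in KO+Rescue at day 2, against 390.0 and 392 in KO+Rescue mESC, 3179 and 2999 in KO at day 2, against 310.4 and 274 in KO mESC, and 3624 and 3478 in WT at day 2, against 460 and 409 in WT mESC. The log2 changes were 2.94 ± 0.12, 3.40 ± 0.12 and 3.03 ± 0.12 in KO+Rescue, KO and WT, with no overlap between the stages. Gli3, the main repressor among the GLI factors, had 777 and 623 at day 2 against 129 and 114 in mESC for KO+Rescue, 514 and 682 against 115 and 127 for KO, and 607 and 429 against 139.9 and 69.2 for WT. Its changes of 2.51, 2.28 and 2.36 (SE 0.29) were alike in the 3 genotypes to within their error, and all day 2 libraries exceeded all mESC libraries. The gene spans chr13:15463723-15730026 and overlaps the lncRNA Gm6556.

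Ptch1 and Sufu, both negative regulators, rose by less. Ptch1 had 1229.6 and 1056 normalised counts in KO+Rescue, 1093 and 1297 in KO and 1474 and 989.7 in WT at day 2, against 606 and 627, 562 and 530.1, and 763 and 452 in the same genotypes as mESC, and its changes were 0.88, 1.12 and 1.04 (SE 0.23). Sufu had 905 and 960.0 in KO+Rescue, 912 and 946 in KO and 1033 and 659 in WT at day 2, against 456 and 439.9, 413 and 382, and 563 and 448 as mESC, with changes of 1.06, 1.22 and 0.72 (SE 0.19). In both genes WT replicate A was the higher WT library at each stage. The Sufu change in WT did not pass without WT replicate A at day 2 (0.39, adjusted p = 0.0953) or WT replicate B in mESC (0.55, adjusted p = 0.0603), and the Ptch1 change in KO+Rescue lost its call by a little without KO+Rescue replicate A at day 2 (0.78, adjusted p = 0.0503). Ptch1 lies at chr13:63508328-63573460 and Sufu at chr19:46396896-46488804, and neither overlaps another annotated gene.

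Hhip, which binds Hedgehog ligands and keeps them from PTCH1, became detectable at day 2. It had 26 and 18 read pairs in KO+Rescue, 60 and 69 in KO and 107 and 46 in WT at day 2, against 1 and 1, 13 and 1, and 8 and 2 as mESC. The ratio of summed read pairs, scaled by library, was 17.4 in KO+Rescue (95% interval 4.54 to 148), 5.6 in KO (3.22 to 10.5) and 9.22 in WT (4.88 to 19.6), intervals that cover counting error only. Hhip passed the filter on low values only through its day 2 libraries, so that it had to differ between the stages. Its fitted changes of 3.32, 3.01 and 3.07 depend on the pseudocount, and the call was lost without KO replicate B in mESC (1.65 in KO), WT replicate A at day 2 (2.61 in WT) or WT replicate B in mESC (2.18 in WT). It lies at chr8:79965850-80058060 and overlaps the lncRNA Gm39206.

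Gli2 moved the other way, and by different amounts in the 3 genotypes. Its changes between mESC and day 2 were −1.67 ± 0.17 in KO+Rescue, −0.87 ± 0.17 in KO and −2.61 ± 0.17 in WT. The day 2 level was 3.17-fold lower than the mESC level in KO+Rescue, 1.83-fold lower in KO and 6.11-fold lower in WT. All 3 calls were kept in every alternative.

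Gli1 was the member whose direction differed between genotypes. It rose in KO (0.84 ± 0.28, limma, adjusted p = 0.02) and fell in KO+Rescue (−0.83 ± 0.28, limma, adjusted p = 0.0218) and in WT (−1.43 ± 0.28, limma, adjusted p = 0.000872). At day 2 the 3 genotypes had means of 75.3 ± 31.7, 91.0 ± 8.11 and 94.7 ± 8.98 normalised counts in KO+Rescue, KO and WT (SD, n = 2 each), and their values overlapped. In mESC the means were 129 ± 11.9, 50.5 ± 4.65 and 257 ± 21.6 in KO+Rescue, KO and WT, without overlap. The rise in KO did not pass without KO replicate A or B at day 2 or KO replicate B in mESC (0.75, 0.93 and 0.75), and the fall in KO+Rescue did not pass without its replicate A at day 2 (−0.39) or replicate B in mESC (−0.73), nor with equal library totals (−0.46, adjusted p = 0.203).

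**Figure D3:**
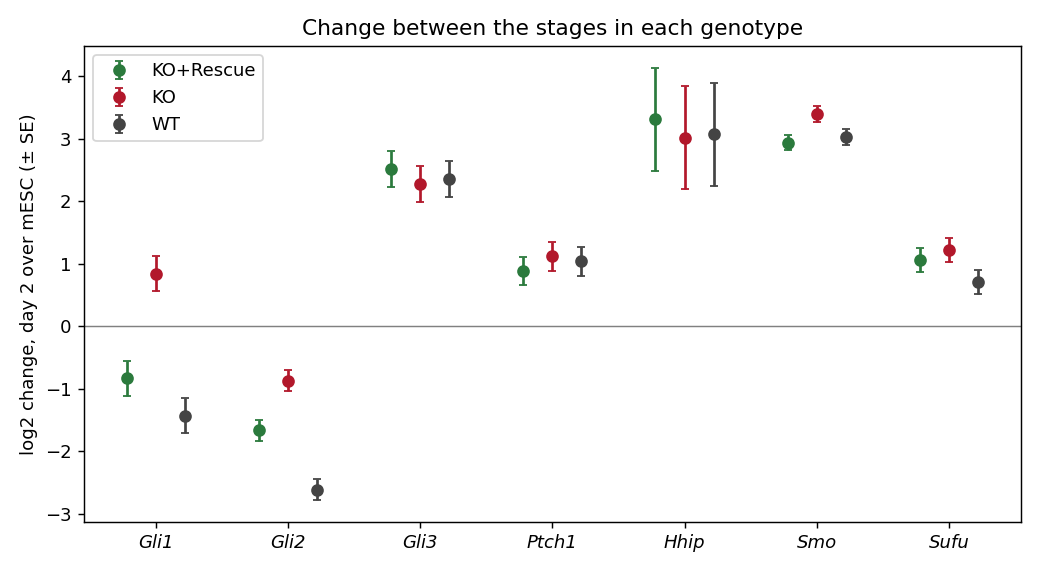
Log2 changes between the stages (day 2 over mESC, vertical axis, ± SE from limma) of the 7 members in KO+Rescue, KO and WT. Gli3, Ptch1, Hhip, Smo and Sufu lie above 0 in all 3 genotypes, Gli2 lies below 0 in all 3, and Gli1 lies above 0 in KO only.

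The opposite courses of Gli2 and Gli3 changed which of them was more abundant. At day 2 Gli3 exceeded Gli2 per kb in all 6 libraries, the ratio of Gli2 to Gli3 being 0.524 and 0.685 in KO+Rescue, 0.774 and 0.679 in KO and 0.220 and 0.354 in WT. In mESC the ratio was above 1 in all 6 libraries, at 10.7 and 11.2 in KO+Rescue, 7.10 and 5.96 in KO and 7.13 and 11.1 in WT. Both day 2 libraries of WT lay below all 4 libraries of the other genotypes. The ratio compares transcripts, not the processed GLI proteins on which activator and repressor function depends.

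**Figure D4:**
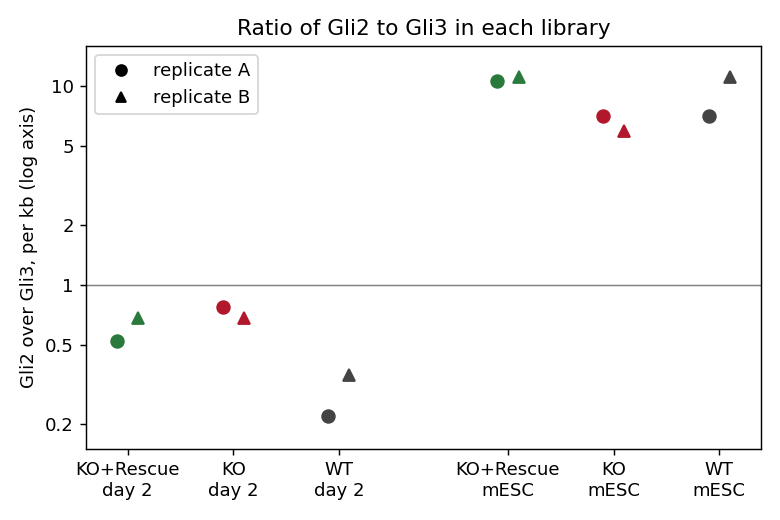
Ratio of Gli2 to Gli3 (normalised counts per kb of transcript, log axis) in each library of the 6 groups (replicate A as a circle, replicate B as a triangle). All day 2 libraries lie below 1 and all mESC libraries above 1, with WT at day 2 lowest (0.220 and 0.354).

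Promoter windows of the members differ in their content of CG dinucleotides, the sites that the TET enzymes act on when methylated. The 250 bases before the annotated start are printed for Smo and Gli3, the members with the largest well-measured rise at day 2, and for Sufu, one of the smaller rises, as given by RefSeq for GRCm38 (5′ to 3′ on the gene's plus strand, CG in capitals).
Smo, chr6:29735247-29735496: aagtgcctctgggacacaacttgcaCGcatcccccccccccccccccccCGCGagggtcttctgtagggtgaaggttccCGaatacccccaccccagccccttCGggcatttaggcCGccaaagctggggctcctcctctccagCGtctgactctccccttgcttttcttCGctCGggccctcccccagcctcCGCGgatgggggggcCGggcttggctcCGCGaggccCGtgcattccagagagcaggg
Gli3, chr13:15463473-15463722: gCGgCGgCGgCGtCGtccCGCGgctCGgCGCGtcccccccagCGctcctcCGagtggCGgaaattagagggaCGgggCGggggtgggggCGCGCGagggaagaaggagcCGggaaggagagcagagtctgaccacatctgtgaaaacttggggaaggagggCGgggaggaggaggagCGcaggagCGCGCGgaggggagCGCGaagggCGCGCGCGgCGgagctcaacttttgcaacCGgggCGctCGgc
Sufu, chr19:46396646-46396895: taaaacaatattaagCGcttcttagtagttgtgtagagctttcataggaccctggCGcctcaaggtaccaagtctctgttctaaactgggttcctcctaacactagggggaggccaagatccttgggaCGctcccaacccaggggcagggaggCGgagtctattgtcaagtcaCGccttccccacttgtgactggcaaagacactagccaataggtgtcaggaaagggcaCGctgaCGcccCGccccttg
These windows hold 15, 34 and 8 CG. Of 32851 RefSeq windows, 72.7% had fewer CG than that of Smo, 96.5% fewer than that of Gli3 and 57.0% fewer than that of Sufu. The other windows at hand held 22 CG for Gli2, 41 for Ptch1 and 28 for Hhip, and Gli1 was not matched. Fewer CG were in 85.2%, 98.9% and 92.4% of all windows. Ptch1, also one of the smaller rises, thus had the most CG among the members' windows. The windows of Gli2 (chr1:119053620-119053869) and Ptch1 (chr13:63565736-63565985) lie inside the gene spans given above. The GLI-binding 9-mer TGGGTGGTC was searched on both strands in 300 bases, 250 before and 50 after the start. It was in none of the 6 members' windows and in 0.253% of all windows, which says only that these letters are not in the window.

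The ligands were scarce. Shh had 0 to 8 read pairs per library, with 4 of 12 libraries at 0, Ihh had 2 to 21 and Dhh 3 to 28. Only Dhh reached the mean of 10 normalised counts needed for the test, with 6.27 and 7.12 in KO+Rescue, 7.84 and 8.09 in KO and 10.7 and 28.5 in WT mESC, and it passed in none of the comparisons of genotypes. Ihh, not tested, had 2.09 and 3.56 in KO+Rescue, 14.6 and 9.44 in KO and 2.37 and 5.09 in WT mESC. Of the 9 listed genes for ligands, their lipid transfer and release, 5 were tested. In KO against WT mESC 0 passed with limma, with 1 at an unadjusted p under 0.05 and 1 called by edgeR and DESeq2 (Scube2), and at day 2 the count was 0 by each of these measures. Of all genes, limma called 3.23% higher and 6.26% lower in KO mESC, and 1.57% higher and 3.64% lower in KO at day 2. Between the stages in WT 1 of the 5 rose and 2 fell, beside 26.6% and 25.3% of all genes, so these counts are a description only. Among those that fell was Scube2, which helps to release lipid-modified ligands. It had 6.66 and 8.70 normalised counts at day 2 against 106 and 67.2 in mESC (−3.31 ± 0.45). Scube2 passed the filter on low values only through its mESC libraries, so that it had to differ between the stages.

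Among the 18 regulators that act between SMO and GLI, 3 fell and none rose in KO mESC, where 6.26% of all genes fell and 3.23% rose. Evc and Evc2 encode partner proteins that bind SMO at the base of the cilium. Evc had 105 and 91.7 normalised counts in KO mESC, against 395 and 267 in WT mESC (−1.71 ± 0.21, limma, adjusted p = 0.00038). Evc2 had 217 and 179 in KO mESC, against 518 and 474 in WT mESC (−1.32 ± 0.18, limma, adjusted p = 0.00076). Both genes were lower in every KO library than in any WT library and kept their calls in every alternative. They are neighbours on chromosome 5, with 1530 bases between chr5:37288970-37336947 (Evc, which overlaps Crmp1) and chr5:37338478-37425055 (Evc2).

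In KO+Rescue mESC both were higher than in KO, and they were the 2 of the 18 regulators called, beside 0.476% of all genes called higher and 1.04% lower. Evc had 335 and 294 in KO+Rescue mESC, against 105 and 91.7 in KO mESC (1.66 ± 0.21, limma, adjusted p = 0.00289), and Evc2 had 379.6 and 458, against 217 and 179 (1.07 ± 0.18, limma, adjusted p = 0.0114). The Evc2 call was lost without KO+Rescue replicate B, KO replicate A or KO replicate B (adjusted p = 0.102, 0.0531 and 0.104). With only the KO+Rescue and KO mESC libraries in the limma fit, neither Evc (adjusted p = 0.104) nor Evc2 (0.147) passed. Evc2 did not pass with equal library totals either (0.96, limma, adjusted p = 0.0532). At day 2 Evc had 359 and 318 in KO+Rescue, 293 and 312 in KO and 492 and 401 in WT, and Evc2 had 429 and 438, 426 and 359.9, and 625 and 496, and neither passed between genotypes. The stage difference of the KO effect did not pass in limma for Evc (1.16 ± 0.29, adjusted p = 0.0885) or Evc2 (0.82 ± 0.25, adjusted p = 0.17). For Evc it passed with DESeq2 (1.18, adjusted p = 0.0153), with the replicate block in limma (adjusted p = 0.0276) and in limma without WT replicate B in mESC (1.44, adjusted p = 0.0217). The third regulator, Spop, a ubiquitin ligase adaptor that directs GLI proteins to degradation, fell by 0.53 on the log2 scale in KO mESC (2526 and 2605 normalised counts in KO, 3657 and 3747 in WT, limma, adjusted p = 0.00879) and by 0.40 in KO at day 2 (3846 and 3925 in KO, 5202 and 5023 in WT, adjusted p = 0.0472). The mESC call was lost without either KO library and in the limma fit of those groups alone (adjusted p = 0.092). The day 2 call was lost without any 1 of its 4 libraries and with edgeR (adjusted p = 0.0729). In limma it was also lost with equal library totals, no filter or those groups alone (adjusted p = 0.08, 0.054 and 0.188).

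Of the 10 reported and tested genes known to be induced by Hedgehog signalling in other settings, 3 fell and none rose in KO mESC (6.26% and 3.23% of all genes), namely Gli1, Ccnd1 and Ccnd2, with a list median of −0.14 beside −0.04 for all genes. Ptch1 and Hhip, feedback targets of the pathway, did not pass in KO mESC, as given above.

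The D-type cyclins are targets of several pathways besides this one. Ccnd2 had 109 and 97.1 normalised counts in KO mESC, against 746 and 597 in WT mESC (−2.69 ± 0.21, limma, adjusted p = 1.58e-05), and 374 and 496 in KO at day 2, against 493 and 367 in WT. Its KO effect differed between the stages by 2.71 ± 0.30 (limma, adjusted p = 0.0018), and its level in KO+Rescue mESC was 138 and 171 (0.58 ± 0.21 against KO, limma, adjusted p = 0.237). Ccnd1 had 2819 and 2625 in KO mESC, against 7774 and 6692 in WT mESC (−1.41 ± 0.13, limma, adjusted p = 5.3e-05), and at day 2 it had 3801 and 3966 in KO, against 8073 and 7143 in WT (−0.97 ± 0.13, limma, adjusted p = 0.00072). These 4 calls were kept in every alternative. Mycn rose in KO at day 2, with 6325 and 6415 in KO against 4671 and 3709.0 in WT (0.61 ± 0.16, limma, adjusted p = 0.0421). The Mycn call was lost without KO replicate A or B or without WT replicate B (0.62, 0.60 and 0.45). In limma it was also lost with equal library totals, no filter or those groups alone (adjusted p = 0.245, 0.076 and 0.0943).

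**Figure D5:**
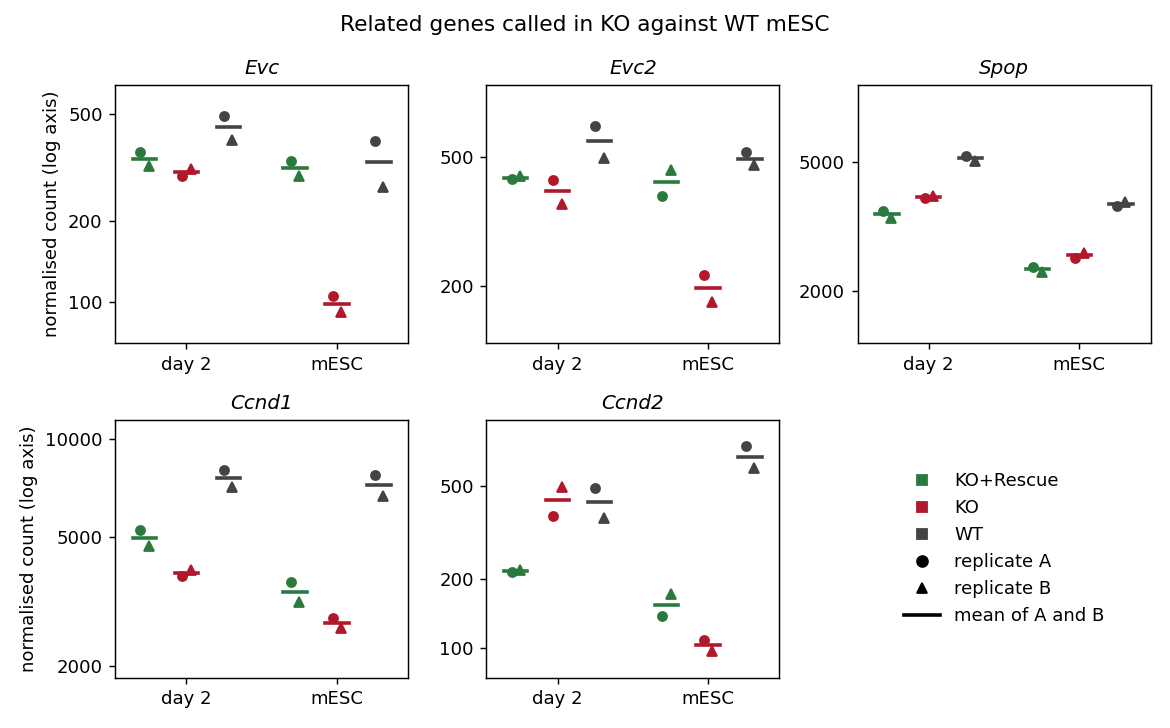
Normalised counts (log axis, scale differing between panels) of Evc, Evc2, Spop, Ccnd1 and Ccnd2, which were called in KO against WT mESC, in the 12 libraries, with symbols as in the plot of the members. In mESC the KO libraries of Evc and Evc2 lie below those of KO+Rescue and WT, and the KO+Rescue libraries of Evc2, Spop, Ccnd1 and Ccnd2 lie below those of WT.

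Few cilium genes passed between KO and WT. Of 21 genes for the cilium and intraflagellar transport, 0 passed in KO against WT mESC with limma, edgeR or DESeq2. Of all genes, limma called 3.23% higher and 6.26% lower there. In limma 6 of the 21 had an unadjusted p under 0.05, a threshold at which the share of all genes was not taken. The changes ran from −0.69 to 0.42 with a median of −0.17, beside −0.04 for all genes. At day 2 Ift27, a small GTPase of the transport machinery, was the 1 that rose, beside 1.57% of all genes (0.67 ± 0.16, limma, adjusted p = 0.0307). The Ift27 call was lost without KO replicate A or B or WT replicate A. In limma it was also lost with equal library totals, no filter or those groups alone (adjusted p = 0.0544, 0.0528 and 0.106). In KO+Rescue against WT mESC 5 of the 21 fell and none rose, beside 9.04% and 9.15% of all genes, Arl13b, a ciliary GTPase, with the smallest adjusted p among them (640 and 481 in KO+Rescue, 850.0 and 902 in WT, −0.66 ± 0.15, limma, adjusted p = 0.0175). The Arl13b call was lost without KO+Rescue replicate B (−0.45, adjusted p = 0.188), without WT replicate A (adjusted p = 0.0785) and with only those 2 groups in the limma fit (adjusted p = 0.0976).

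The co-receptors also differed between the stages. Of the 7 reported receptors, co-receptors and ligand traps, all 7 rose in each genotype (29.2% of all genes in KO+Rescue, 31.4% in KO and 26.6% in WT), Hhip among them, which had to differ by the filter. Boc, Cdon and Gas1 hold ligand for PTCH1. In WT, Gas1 had 289 and 172 normalised counts at day 2 against 11.8 and 19.3 in mESC (3.79 ± 0.44), and Boc had 175 and 99.3 against 19.0 and 23.4 (2.59 ± 0.32). Lrp2, an endocytic co-receptor, had 3281 and 2145 at day 2 against 340.2 and 234 in mESC (3.23 ± 0.23).

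Among the regulators, Gpr161, a ciliary receptor that restrains the pathway through protein kinase A, rose in all genotypes (2.51, 2.27 and 2.49 in KO+Rescue, KO and WT). Of the 10 target genes 6 rose and 3 fell in KO+Rescue (29.2% and 29.1% of all genes), 8 rose and 2 fell in KO (31.4% and 28.7%), and 4 rose and 4 fell in WT (26.6% and 25.3%). These counts include Hhip, Foxa2 and Bcl2, which passed the filter on low values only through their day 2 libraries and so had to differ between the stages, and over all genes too most were called in each genotype, so that the counts are a description only. Foxa2 had 32 and 27 read pairs in WT at day 2, against 2 and 1 in WT mESC, and Bcl2 144 and 116, against 4 and 7. Of the others in WT, Ptch1 rose, while Nkx6-2 (−2.64 ± 0.24), Olig2 (−1.06 ± 0.17), Ccnd2 (−0.65 ± 0.21) and Gli1 fell. Over the same 2 days the 8 neuroectoderm markers summed to 6220.4 to 6225.6 normalised counts in KO+Rescue, 6688 to 6900.1 in KO and 3257 to 5951 in WT at day 2, against 388 to 406, 378 to 444 and 339 to 444 as mESC, and their part in the members' changes was not tested.

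The genes whose pattern over the 12 libraries was most like each member were found by Pearson's r of log2(normalised count + 1) among the 15340 other genes tested, as a description only, since all libraries share the 2 stages. Smo was closest to Arrb1, Gpsm1 and Flywch1 (0.996, 0.996 and 0.995), Gli3 to Rgp1, Agap1 and Top2b (0.993, 0.991 and 0.990), Ptch1 to Ccdc6, Camsap1 and Rapgef1 (0.993, 0.993 and 0.986) and Sufu to Gtf2i, Ube4b and Stk40 (0.990, 0.990 and 0.989). Hhip was closest to Ccno, Gpam and Lrrn4 (0.969, 0.961 and 0.958). Gli2 was closest to Zscan4d, Csnk2b and Tex9 (0.968, 0.948 and 0.948), and Zscan4d belongs to a family of near-identical genes among which reads may be split. Gli1 had the least close neighbours, Plekho2, Calb2 and Gtf3c5 (0.902, 0.888 and 0.882).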

How the data were processed

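RNA-seq of 12 libraries was analysed. Per the labels and the study's methods, the authors prepared libraries with a directional kit, trimmed reads with Trimmomatic, aligned them with STAR to mm10, counted read pairs per RefSeq gene with featureCounts, removed Y chromosome reads and normalised with DESeq2; versions and the strand setting of the counting are not given in the sources used here. The deposited values are a signal, namely counts divided by a size factor per library, and 100% of them were whole multiples (tolerance 0.001) of 1 read pair. Columns were assigned by name, the letters A and B having no stated match to the labels' replicate numbers.

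Genes with a mean of at least 10 normalised counts (15341) were tested with limma 3.58.1 (R 4.3.3, trend) on log2(normalised count + 1), with 6 group means over all 12 libraries, 6 residual degrees of freedom and Benjamini-Hochberg adjustment over all genes tested (called under 0.05). edgeR 4.0.16 and DESeq2 1.42.0 on the recovered counts were alternatives, with equal library totals, pseudocounts of 0.5 and 5, no filter, a mean of 50, fits of the compared groups alone, a replicate block and each library left out. The fit was tested on simulated data. For named genes outside the 7 members the alternatives were chosen after seeing the data. Lengths are those of the GENCODE vM39 canonical transcripts, a later annotation than that of the counts. All 7 members are given, with up to 4 called genes of smallest adjusted p per pathway list, the ligands, and further examples chosen after their values were seen. The members and lists were chosen with earlier results of these data known. A listed gene is not reported here.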

Additional observations from a re-analysis of the deposited data

Results flagged for a closer look

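The effect of KO against WT differed between day 2 and mESC, by a test of the difference itself, for 3 of the listed pathway genes. For Gli1 the difference of log2 changes was 2.27 (limma, adjusted p = 0.0146), the change being −0.06 at day 2 and −2.33 in mESC. For Gli2 it was 1.74 (limma, adjusted p = 0.00329), with a change of 1.58 at day 2 and −0.16 in mESC. For Ccnd2 it was 2.71 (limma, adjusted p = 0.0018), with a change of 0.02 at day 2 and −2.69 in mESC.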

How the results depend on the processing

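Of the 77 member changes (7 genes in 11 comparisons), 31 were called, 19 of these kept the call in every alternative and 12 lost it in at least 1, none changing direction. The number of members called in KO+Rescue against KO in mESC was 2 and became 1 with edgeR (Gli2 at 0.72, adjusted p = 0.0558) and 0 with equal library totals, no filter or a fit of those groups alone, and 0 without any single library. In KO+Rescue against WT in mESC it was 2 and became 1 with equal library totals, 0 with no filter or a fit of those groups alone, and 0 to 1 without a library. In KO against WT mESC it was 2, 1 in the fit of those groups alone (Smo lost) and 1 to 2 without a library. The stage dependence of KO against WT had 2, and 1 to 2 without a library (Gli1 lost), and that of KO+Rescue against KO had 0, and 1 with DESeq2 (Gli1). With equal library totals the median change of all genes was −0.25 in KO against WT mESC, beside −0.04 (236 genes higher and 1374 lower, beside 495 and 960), −0.38 and −0.22 in KO+Rescue against WT in mESC and at day 2, beside −0.06 and −0.03, and 0.34, 0.35 and 0.21 between the stages in KO+Rescue, KO and WT, beside −0.03, 0.02 and −0.02. Gli2 in KO+Rescue against WT mESC was then 0.27, beside that median of −0.38. With the replicate block, in which letters paired libraries within a stage, the count of members called was the same in every comparison, 2 in KO against WT mESC among them, while the calls over all genes there went up to 3273, beside 1455. The letters share no stated batch, and the deviations of replicate A correlated at 0.12 to 0.17 between mESC groups and −0.05 to 0.06 between day 2 groups. Depth limits Hhip in mESC (1 to 13 read pairs) and Shh (0 to 8).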
